A study of Mus musculus with 58 samples.

Results

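Expression of 10 surface marker genes of mesenchymal stem cells was measured in adipose stem cells (ASC) sorted from the inguinal white adipose tissue (iWAT) of C57BL6/J mice. The genes were Nt5e, Thy1, Eng, Cd34, Ly6a, Pdgfra, Pdgfrb, Vcam1, Alcam and Cd9. They were taken by their Ensembl mouse identifiers from a read count matrix of 56953 genes, in which each of the 10 symbols belonged to 1 identifier. All 10 passed the filter on low counts and stand among the 12464 genes tested.

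The matrix held 58 Smart-seq3 libraries in 8 groups. The mice were control males, control females, castrated males and ovariectomized females. Per the study's methods, surgery was done at 4 weeks of age and the mice were terminated at 10 weeks after 4 h of fasting, with 8 mice in each treatment group. From each kind of mouse, cells negative for CD45 and CD31 and positive for CD34 were gated, then divided into DPP4-negative ASC1 and DPP4-positive ASC2. The groups held 7 libraries of control male ASC1, 3 of ovariectomized female ASC1 and 8 of each of the other 6. Libraries carry letters, A to H in controls and I to P after surgery, and no label names the mouse. P-values therefore measure the spread between libraries, part of which may be technical. Because CD34 was a sorting gate, the level of Cd34 is that of cells already selected for its protein.

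Mesenchymal stem cells are recognised by a set of cell surface proteins rather than by any single one. Nt5e encodes CD73, a GPI-anchored ecto-5′-nucleotidase that turns extracellular AMP into adenosine. Thy1 encodes the GPI-anchored glycoprotein CD90 and Eng encodes endoglin (CD105), a co-receptor for ligands of the TGF-beta family that is abundant on endothelial cells. CD73, CD90 and CD105 form the classical trio used to define cultured human mesenchymal stem cells. In mouse tissue, stromal progenitors are more often identified with the sialomucin CD34, with Sca-1 (Ly6a, GPI-anchored) and with the PDGF receptor tyrosine kinases Pdgfra and Pdgfrb. Vcam1 and Alcam (CD166) are adhesion proteins of the immunoglobulin superfamily, and Cd9 is a tetraspanin.

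The 3 genes that differed between control males and control females in ASC2 were Nt5e, Alcam and Eng, and the 250 bases upstream of their RefSeq transcription starts are printed to show what lies next to their starts. Sequences run 5′ to 3′ on the gene's strand of GRCm38.p6. Capitals mark the letters of 5 motifs, searched on both strands. The GC box was searched as GGGCGG and the box of CCAAT-binding factors as CCAAT. The TATA box was searched by the letters TATAAA. The half-site bound by androgen and glucocorticoid receptors was searched by the letters AGAACA. The half-site bound by estrogen receptors was searched by the letters AGGTCA. The window of Nt5e is chr9:88327359-88327608 on the plus strand, that of Alcam is chr16:52453082-52453331 on the minus strand, and that of Eng is chr2:32646345-32646594 on the plus strand.
Nt5e: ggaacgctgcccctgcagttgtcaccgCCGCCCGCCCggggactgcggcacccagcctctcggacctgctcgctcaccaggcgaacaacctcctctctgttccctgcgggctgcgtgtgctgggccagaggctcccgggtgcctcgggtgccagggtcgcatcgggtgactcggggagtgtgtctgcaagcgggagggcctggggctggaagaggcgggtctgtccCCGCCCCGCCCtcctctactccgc
Alcam: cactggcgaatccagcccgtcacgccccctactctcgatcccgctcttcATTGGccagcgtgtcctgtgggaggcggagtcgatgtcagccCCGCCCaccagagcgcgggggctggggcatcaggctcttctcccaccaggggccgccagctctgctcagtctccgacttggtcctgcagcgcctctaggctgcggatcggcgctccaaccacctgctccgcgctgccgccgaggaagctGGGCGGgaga
Eng: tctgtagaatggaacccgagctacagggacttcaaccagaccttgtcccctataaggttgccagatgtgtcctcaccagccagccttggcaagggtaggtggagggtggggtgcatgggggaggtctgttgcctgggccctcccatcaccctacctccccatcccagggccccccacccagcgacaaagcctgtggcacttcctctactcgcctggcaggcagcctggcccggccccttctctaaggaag
The Nt5e window was 72.0% G and C with 21 CpG dinucleotides, and it held the GC box 4 times, each time in reverse orientation as CCGCCC. The Alcam window was 69.2% G and C with 22 CpG dinucleotides, and it held 2 GC boxes and 1 reverse CCAAT box (ATTGG). The Eng window was 62.4% G and C, had 4 CpG dinucleotides and held none of the 5 motifs. Neither half-site nor the TATA box was found in any of the 3 windows. Among all 32851 promoter windows of this length, the median was 52.4% G and C, and 32.7% held a GC box, 33.8% a CCAAT box, 12.4% a TATA box, 16.1% the androgen receptor half-site and 14.0% the estrogen receptor half-site. These matches describe letters in a window and not bound sites. RefSeq promoters were found for 6 of the 10 genes.

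Library totals ranged from 106562 to 1421518 reads, with a median of 682400, and 9122 to 15026 genes were detected per library. Sex-chromosome transcripts were compared with the labels before any other result. A library labelled male was taken to match when it had at least 20 CPM (counts per 1000000 reads of the TMM-scaled library) of Ddx3y, Eif2s3y, Uty and Kdm5d summed and under 15 CPM of Xist, and one labelled female when the reverse held. By this rule 30 of the 58 libraries matched and 28 did not. Some that did not carried both kinds of transcript. Control female ASC2 library H, for example, had 47.0 CPM of the Y-chromosome genes and 52.8 CPM of Xist. The libraries labelled castrated male ASC2 (8 of 8), ovariectomized female ASC2 (8 of 8) and ovariectomized female ASC1 (3 of 3) matched. Among controls, 3 of 7 male ASC1, 4 of 8 male ASC2, 2 of 8 female ASC1 and 2 of 8 female ASC2 libraries matched. In control males every library with letters A to D matched and none with letters E to H did. In control females no ASC2 library with letters E to H matched. Subsets by letter are therefore not independent of this rule. None of the 8 libraries labelled castrated male ASC1 matched, with Xist at 51.9 to 118 CPM and the 4 Y-chromosome genes summing to at most 4.72 CPM. The study's methods report low counts of Ddx3y and Eif2s3y in female controls and read them as weak contamination by male mRNA. From low Sult1e1 and C7 the study proposes that these samples are clean. C7 and Sult1e1, which the study also followed in these libraries, separated the control labels completely. C7 was at 122 to 1664 CPM in the 15 control male libraries and at no more than 20.8 CPM in the 16 control female libraries, and Sult1e1 was at 22.7 to 154 CPM against no more than 4.84 CPM. C7 was at most 14.4 CPM in the castrated male libraries and at most 3.85 CPM in ovariectomized female ASC2, but at 50.3 to 285 CPM in the 3 ovariectomized female ASC1 libraries. Groups are named below by their labels, and the differences of the 10 genes were also computed with the matching libraries alone where at least 2 remained in every group.

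**Figure D1:**
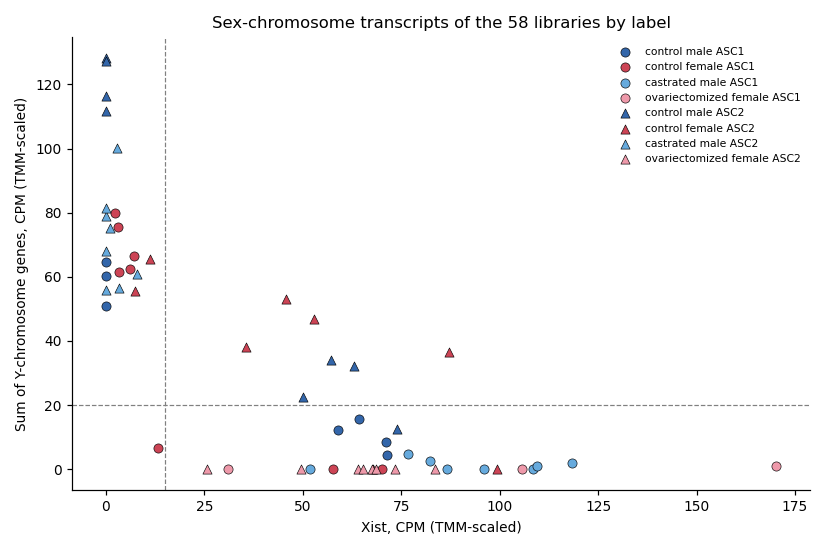
Xist on the x axis is plotted against the sum of 4 Y-chromosome genes on the y axis, both in CPM, with 1 point per library, circles for ASC1 and triangles for ASC2. Dashed lines stand at 15 CPM of Xist and 20 CPM of the Y-chromosome genes, and 28 of the 58 libraries lie outside the quadrant their label would place them in, among them all 8 labelled castrated male ASC1.

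The markers of the sorted population were present, with the summed level of the fibroblast genes Pdgfra, Col1a1, Dcn and Lum at 3024 to 13976 CPM in 7 groups. The 3 ovariectomized female ASC1 libraries stood apart at 43144 to 45105 CPM. Their 5 ASC1 markers summed to 974 to 1634 CPM, their 7 macrophage and leukocyte markers to 24.8 to 27.5 CPM, and all 5 epithelial markers were at 0. The 3 ASC2 markers Dpp4, Cd55 and Arl4d summed to 61.9 to 151 CPM in these libraries. That sum was 16.0 to 84.1 CPM in control female ASC1 and 103 to 206 CPM in ovariectomized female ASC2. Library K of castrated male ASC2 also stood apart from its group in Pdgfra, Pdgfrb and Vcam1.

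Nt5e was the scarcest of the 10 genes per length. Its median over the 58 libraries was 0.719 CPM per kilobase of exon, against 5.37 for Alcam, 8.88 for Vcam1, 20.7 for Eng, 38.8 for Pdgfra, 47.8 for Cd34, 77.9 for Pdgfrb, 125 for Cd9, 257 for Thy1 and 885 for Ly6a. A single library held between 0 and 28 reads of Nt5e, so single libraries carry a large counting error. Below, all levels are CPM without division by length, and all differences are log2 fold changes with their standard error (SE) and Benjamini-Hochberg adjusted p from edgeR's quasi-likelihood test.

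The level of Nt5e in control mice depended on the population in which it was compared. In control male ASC2 the lowest, median and highest libraries were at 13.0, 19.0 and 27.0 CPM, with a mean of 18.8 ± 5.01 CPM (SD, n = 8). In control female ASC2 they were at 0, 1.38 and 2.55 CPM, with a mean of 1.08 ± 0.967 CPM (SD, n = 8), from 6 reads in all. Every control male ASC2 library lay above every control female ASC2 library. In ASC1 the control groups overlapped, at 2.22, 11.9 and 30.6 CPM in males (mean 11.9 ± 9.24, SD, n = 7) and at 5.35, 14.4 and 29.0 CPM in females (mean 15.4 ± 9.31, SD, n = 8).

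After surgery the order of the groups was different again. In castrated male ASC1 the lowest, median and highest Nt5e levels were 0, 1.20 and 3.59 CPM (mean 1.52 ± 1.55, SD, n = 8), with 3 libraries at 0 reads. In castrated male ASC2 they were 1.27, 8.78 and 23.02 CPM (mean 9.85 ± 6.68, SD, n = 8). The 3 ovariectomized female ASC1 libraries held no Nt5e read, which with a floor of 3 reads over the group allows up to 2.38 CPM. In ovariectomized female ASC2 the levels were 0.960, 5.49 and 25.7 CPM (mean 7.73 ± 8.27, SD, n = 8). From the highest mean to the lowest the order was control male ASC2, control female ASC1, control male ASC1, castrated male ASC2, ovariectomized female ASC2, castrated male ASC1, control female ASC2 and ovariectomized female ASC1, and the ranges of each pair of neighbours in it overlapped.

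**Figure D2:**
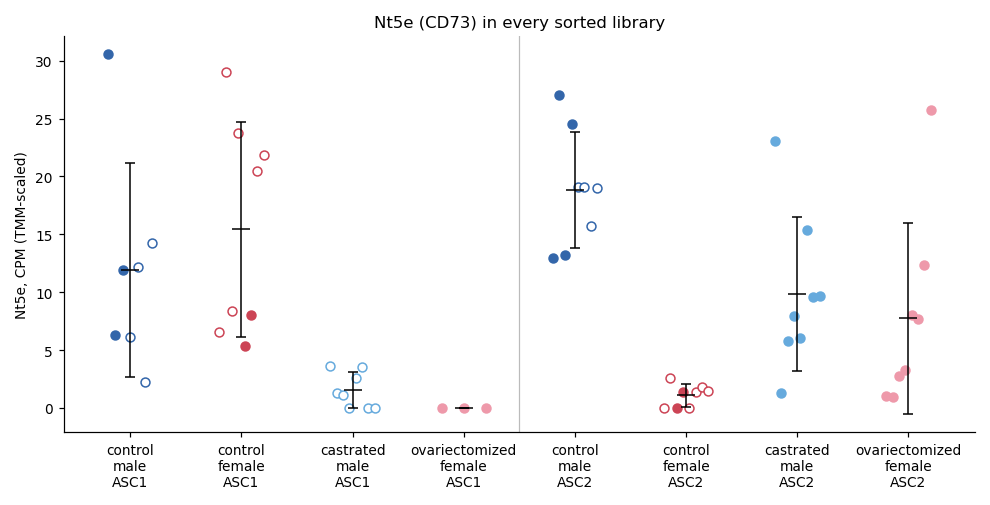
Each point is the Nt5e level of 1 library in TMM-scaled CPM on the y axis, by group on the x axis, filled where sex-chromosome transcripts matched the label and open where they did not, with black bars for the mean ± SD. The 8 control male ASC2 libraries sit between 13.0 and 27.0 CPM and all control female ASC2 libraries at or below 2.55 CPM, while the control groups overlap in ASC1.

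The comparison of control males with control females asks which surface markers are sexually dimorphic. In ASC2, 3 of the 10 genes passed the test, where 6.5% of all genes tested did. Nt5e was higher in males by 3.92 on the log2 scale (SE 0.57, adjusted p = 7.03e-06), or 15.2-fold. In bulk RNA, fewer cells that express a gene and less RNA per cell cannot be told apart. With only the 4 male and 2 female libraries whose sex-chromosome transcripts matched, the difference was 4.69 (adjusted p = 0.0335), and it also passed within letters A to D (4.07, adjusted p = 0.00425) and E to H (3.73, adjusted p = 0.00267). No control ASC2 library with letters E to H matched its label. In ASC1 none of the 10 genes passed by edgeR, where 0.289% of all genes did, and Nt5e differed by -0.48 (SE 0.45, adjusted p = 0.848), an interval of -1.39 to 0.43. At an unadjusted p under 0.05, Thy1, Cd34 and Ly6a were higher in male ASC1, and DESeq2 called no gene of the 10 either. With the matching libraries alone the Nt5e difference in ASC1 turned to 1.17 (adjusted p = 0.646).

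The sex difference of Nt5e was itself different in the 2 populations. The difference between the ASC2 and the ASC1 comparison was 4.40 on the log2 scale (SE 0.74, adjusted p = 0.00216), and Nt5e was the 1 gene of the 10 that passed this test, where 0.128% of all genes did. The size was 3.52 with the matching libraries, which no longer passed (adjusted p = 0.227), and 4.39 in letters A to D, which did not pass either (adjusted p = 0.118).

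Castration was compared with control males to ask how the markers respond to loss of the testes. In ASC1, Nt5e was lower after castration by 2.58 on the log2 scale (log2 fold change -2.58, SE 0.58, adjusted p = 0.00628), or 5.96-fold. Cd34 and Cd9 were also lower, so that 3 of the 10 genes passed, where 2.36% of all genes did. Markers of other cells moved in the same comparison. Of 4 mesothelial markers, Upk3b, Lrrn4 and Msln were higher after castration, the sum of the 4 ranging from 0 to 39.1 CPM in control and from 0 to 146 CPM in castrated males, with medians of 0.872 and 91.6 CPM. Of 7 macrophage and leukocyte markers, 6 were tested and Adgre1, Cd68 and Ptprc were lower, the sum of the 7 ranging from 82.5 to 733 CPM in control and from 96.9 to 163 CPM in castrated males. Dpp4, the gene of the gate that ASC1 lack, was higher. The part of these in the changes of Nt5e, Cd34 and Cd9 was not tested. None of the castrated male ASC1 libraries matched its label by sex-chromosome transcripts, and the comparison could not be made without them. For Nt5e it did not pass in letters E to H and M to P (-1.90, adjusted p = 0.127). In ASC2, 1 of the 10 genes passed, where 6.96% of all genes did, and this was Eng. Nt5e in castrated male ASC2 differed from control males by -0.91 (SE 0.43, adjusted p = 0.195), an interval of -1.77 to -0.06. The test of the castration effect in ASC2 against that in ASC1 gave 1.66 for Nt5e (SE 0.72, adjusted p = 0.246), and none of the 10 genes passed it by edgeR, where 2.41% of all genes did. At an unadjusted p under 0.05, Nt5e, Eng, Cd34 and Cd9 passed, and DESeq2 called Cd9.

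Castrated males were also set beside control females. In ASC2, Nt5e was higher in castrated males by 3.01 on the log2 scale (SE 0.60, adjusted p = 0.00249), or 8.05-fold. It was the 1 gene of the 10 that passed, where 1.41% of all genes did. The lowest castrated male library, at 1.27 CPM, lay within the range of the control females. With the matching libraries alone the difference was 3.75 (adjusted p = 0.115), and in letters A to D and I to L it was 3.13 (adjusted p = 0.105). In ASC1 the direction was the opposite, with Nt5e at -3.05 (SE 0.56, adjusted p = 8.12e-04). There 3 of the 10 genes passed, Nt5e, Cd34 and Cd9, each lower in castrated males, where 2.07% of all genes did. By sex-chromosome transcripts, 0 of 8 castrated male ASC1 and 2 of 8 control female ASC1 libraries matched their labels. This ASC1 comparison could therefore not be made with matching libraries.

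Ovariectomy was compared with control females. In ASC2, Nt5e was at 0.960 to 3.29 CPM in libraries I to L and at 7.69 to 25.7 CPM in libraries M to P, against at most 2.55 CPM in control females. The difference of 2.12 (SE 0.67, adjusted p = 0.0820) did not pass, with an interval of 0.78 to 3.46, and it passed within letters E to H and M to P (3.03, adjusted p = 0.0293). Cd34 and Ly6a passed, both lower, so that 2 of the 10 genes did, where 2.09% of all genes did. Of the 3 ASC2 markers, Dpp4 and Cd55 were also lower, the sum of the 3 ranging from 162 to 839 CPM in control and from 103 to 206 CPM in ovariectomized females. Of the 4 fibroblast markers, Dcn and Lum were lower, with sums of 3903 to 13976 CPM and 3923 to 9177 CPM. Of 5 epithelial markers, the 4 tested (Krt5, Krt8, Krt14 and Krt18) were higher, with sums of 6.37 to 42.8 CPM and 9.88 to 1079 CPM. Of 8 mural markers, 7 were tested and Acta2 and Tagln were higher, with sums of 231 to 2530 CPM and 1333 to 3653 CPM. The part of these in the Cd34 and Ly6a differences was not tested. The effect of castration less that of ovariectomy in ASC2 was -3.04 for Nt5e (SE 0.80, adjusted p = 0.0506). None of the 10 genes passed this test by edgeR, where 0.602% of all genes did, while Nt5e passed by DESeq2 (-3.28, adjusted p = 0.0242) and was the 1 gene of the 10 under an unadjusted p of 0.05. In ASC1, Nt5e had no read in the 3 ovariectomized libraries, against 74 reads in the 8 control female libraries. With the floor of 3 reads its pooled level was at least 6.52-fold lower, a bound for counting error only that leaves out the spread between libraries. The test by edgeR, which asks for any difference and not for this bound, gave an adjusted p of 5.72e-04. With the 2 matching control female libraries the test did not pass (adjusted p = 0.0538).

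**Figure D3:**
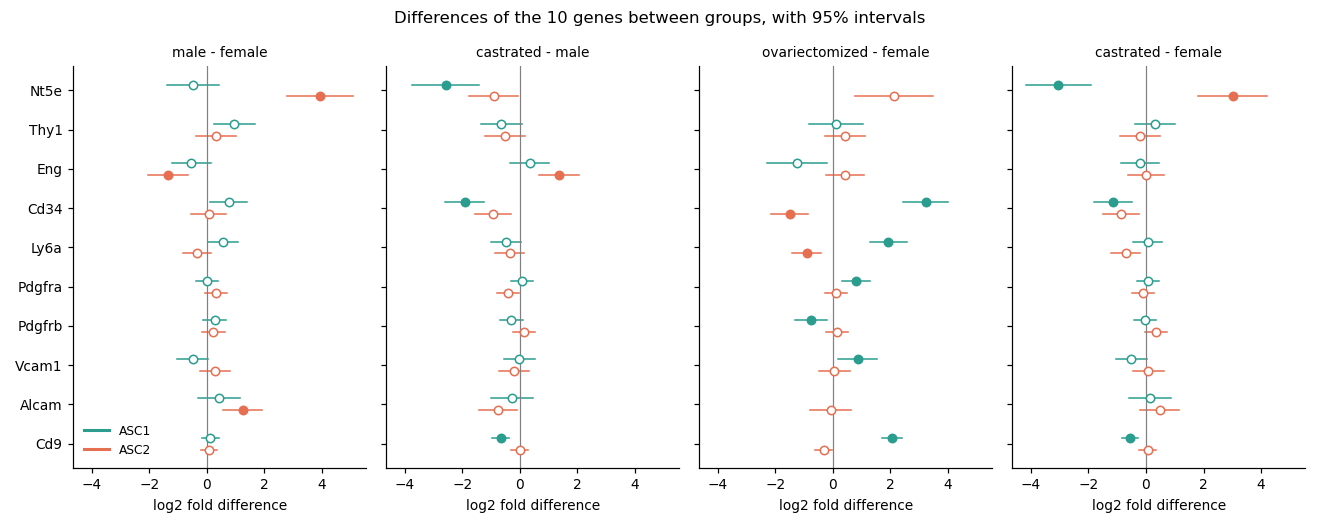
Log2 fold differences of the 10 genes are plotted on the x axis, ASC1 in green and ASC2 in orange, as points with 95% intervals, filled where the adjusted p was under 0.05. Nt5e stands at 3.92 for male against female ASC2 and at -2.58 for castrated against control male ASC1. Nt5e and Alcam are left out of the ovariectomized ASC1 panel, where they had 0 and 3 reads.

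Within one kind of mouse, ASC2 was compared with ASC1. In control females, 3 of the 10 genes passed, where 6.11% of all genes did, and Nt5e was lower in ASC2 by 3.67 on the log2 scale (log2 fold change -3.67, SE 0.59, adjusted p = 8.75e-06). In control males, 3 genes passed, where 12.2% of all genes did, and Nt5e was not among them (0.73, SE 0.44, adjusted p = 0.297). In castrated males, 2 genes passed, where 9.09% of all genes did, and Nt5e was higher in ASC2 by 2.39 (SE 0.58, adjusted p = 0.00374). In ovariectomized females, 7 genes passed, where 35.4% of all genes did, and Nt5e was higher in ASC2 (adjusted p = 0.0204). With the floor of 3 reads in ASC1, its pooled level was at least 1.88-fold higher, for counting error only. ASC2 libraries I and J, at 1.05 and 0.960 CPM, lay below that floor of 2.38 CPM. The call was lost without library L of ASC1 (adjusted p = 0.210), by DESeq2 (adjusted p = 0.0507) and when only the 2 groups were fitted. The control female difference was -3.15 with the matching libraries (adjusted p = 0.3001). The castrated male difference was 2.69 and 2.08 in letters I to L and M to P, with adjusted p values of 0.0785 and 0.0582. By sex-chromosome transcripts, 0 of 8 castrated male ASC1 and 8 of 8 castrated male ASC2 libraries matched their label. The 2 populations of castrated males thus differed in sex-chromosome transcripts too, and the matching libraries could not be compared.

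Of the 16 genes of the adenosine pathway, 13 were tested. Slc29a1, the equilibrative nucleoside transporter that carries adenosine across the membrane, was higher in control male than control female ASC2 (log2 fold change 0.83, SE 0.18, adjusted p = 0.00266). Its level fell after castration in ASC2 (-0.67, SE 0.18, adjusted p = 0.0163) and ASC1 (-1.05, SE 0.19, adjusted p = 5.01e-04), and after ovariectomy in ASC2 (-0.93, SE 0.19, adjusted p = 0.00212). Entpd2, an ectonucleotidase that hydrolyses ATP, fell after castration in ASC2 by 1.86 (adjusted p = 4.78e-05) and in ASC1 by 1.75 (adjusted p = 4.22e-05). For Slc29a1 and Entpd2 alike, none of the castrated male ASC1 libraries matched its label by sex-chromosome transcripts. Adora2b, an adenosine receptor, was lower in control male than control female ASC1 (-1.16, SE 0.23, adjusted p = 0.00289) and higher after ovariectomy in ASC2 (0.76, SE 0.21, adjusted p = 0.0372). Ovariectomized female ASC1 showed the opposite directions against control female ASC1. Slc29a1 was higher there (mean 846 ± 299 against 189 ± 41.3 CPM, SD, n = 3 and 8), as was Entpd2 (823 ± 178 against 71.3 ± 34.8 CPM), and Adora2b was lower (3.43 ± 3.03 against 58.8 ± 13.6 CPM), each passing edgeR's test. In male against female ASC2 the list had 1 gene of 13 higher and none lower, a share near the 6.5% of all genes, with a median difference of -0.16 beside 0.00 (-0.00218) over all genes. After castration it had none higher and 2 of 13 lower in either population, where 6.96% of all genes passed in ASC2 and 2.36% in ASC1, with medians of 0.09 in ASC2 and -0.30 in ASC1. In male against female ASC1 it had 1 of 13 lower, Adora2b, where 0.289% of all genes passed. There 3 of 7 male and 2 of 8 female libraries matched their labels, and the list was not tested with matching libraries alone. After ovariectomy in ASC2 it had 1 higher and 1 lower, where 2.09% of all genes passed.

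The genes whose levels were most like those of Nt5e were found by Pearson correlation of log2(CPM + 1) over the 58 libraries, among 10542 genes with a mean of at least 5 CPM. They were Fignl1 (r = 0.638), S1pr3 (r = 0.632), Smg6 (r = 0.625), Il1rn (r = 0.618) and Ccl12 (r = 0.594). S1pr3 encodes a sphingosine-1-phosphate receptor, Il1rn the antagonist of the interleukin-1 receptor and Ccl12 a chemokine. Libraries of a group share their source, so these values describe likeness only.

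Thy1 was abundant in each group but varied widely between libraries of one group. In control male ASC1, libraries B to D were at 360 to 373 CPM and libraries E to H at 1799 to 2301 CPM. In control female ASC1, libraries E and F were at 1385 and 1331 CPM and the other 6 at 362 to 505 CPM. In castrated male ASC1, libraries I and J were at 1761 and 1937 CPM and K to P at 427 to 533 CPM. Each of these ASC1 groups was thus divided into a high and a low set of libraries with a wide gap. In ovariectomized female ASC2 the gap lay between I to L (609 to 816 CPM) and M to P (1235 to 1576 CPM), in control male ASC2 between A to D (542 to 795 CPM) and E to H (1069 to 1333 CPM), and in castrated male ASC2 between I to K (310 to 480 CPM) and L to P (776 to 940 CPM). Control female ASC2 showed no such gap (603 to 863 CPM), and the 3 ovariectomized female ASC1 libraries were at 587, 629 and 929 CPM.

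Thy1 passed none of the 15 tests by edgeR and none by DESeq2, and 1 of them had an unadjusted p under 0.05. Its difference between control males and control females in ASC1 was 0.95 (SE 0.36, adjusted p = 0.394). With the matching libraries alone it was -1.88 (adjusted p = 0.0153), and within letters E to H it was 1.12 (adjusted p = 0.0284). No control male ASC1 library with letters E to H matched its label. The castration difference in ASC1 was 1.66 (adjusted p = 0.0136) within letters A to D and I to L and -2.04 (adjusted p = 7.28e-06) within E to H and M to P, so its direction depended on the libraries used. Xist moved with Thy1 in the control ASC1 libraries: the 6 libraries with Thy1 of at least 1331 CPM had Xist at 57.8 to 71.5 CPM, and the other 9 had at most 13.1 CPM. In castrated male ASC1 it did not, with Xist at 118 and 109 CPM in libraries I and J and at 51.9 to 110 CPM in K to P. The part of these in the spread of Thy1 was not tested.

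Eng was low where Thy1 was high. Over the 58 libraries, Pearson's r of log2(CPM + 1) between Eng and Thy1 was -0.595, given as a description since libraries of a group share their source. Eng libraries of control male ASC2 had a lowest, median and highest level of 16.6, 28.0 and 60.04 CPM (mean 31.9 ± 14.8, SD, n = 8). In control female ASC2 they were 33.3, 83.7 and 121 CPM (mean 82.3 ± 25.0, SD, n = 8), and in castrated male ASC2 27.2, 87.5 and 121 CPM (mean 81.5 ± 32.4, SD, n = 8). Control males had the lowest mean, and the ranges of the 3 groups overlapped. Eng was lower in male than female ASC2 (log2 fold change -1.35, SE 0.35, adjusted p = 0.0101) and higher in castrated than control male ASC2 (1.35, SE 0.35, adjusted p = 0.00997). The same 2 differences were -1.76 (adjusted p = 0.0409) and 1.40 (adjusted p = 0.0247) with the matching libraries. Within letters E to H and M to P, where no control ASC2 library matched its label, they did not pass (-0.98, adjusted p = 0.396, and 0.86, adjusted p = 0.446). Endothelial cells express Eng strongly, and the summed level of 6 endothelial markers was 14.8 to 46.6 CPM in control male, 38.1 to 74.1 CPM in control female and 55.9 to 112 CPM in castrated male ASC2. Of the 6, Kdr was lower in male than female ASC2, and Ptprb, Pecam1, Cdh5 and Kdr were higher in castrated than control male ASC2. After castration in ASC2, the leukocyte markers Cd68 and Csf1r and the mesothelial markers Wt1 and Upk3b were higher too. Of the mural markers, Kcnj8 was higher and Rgs5 lower. Of all genes, 6.5% passed in male against female ASC2 and 6.96% after castration in ASC2. The part of these markers in the Eng differences was not tested. In control males Eng was lower in ASC2 than ASC1 by 1.43 (log2 fold change -1.43, SE 0.35, adjusted p = 0.00435), which did not pass in letters E to H (-0.40, adjusted p = 0.780).

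**Figure D4:**
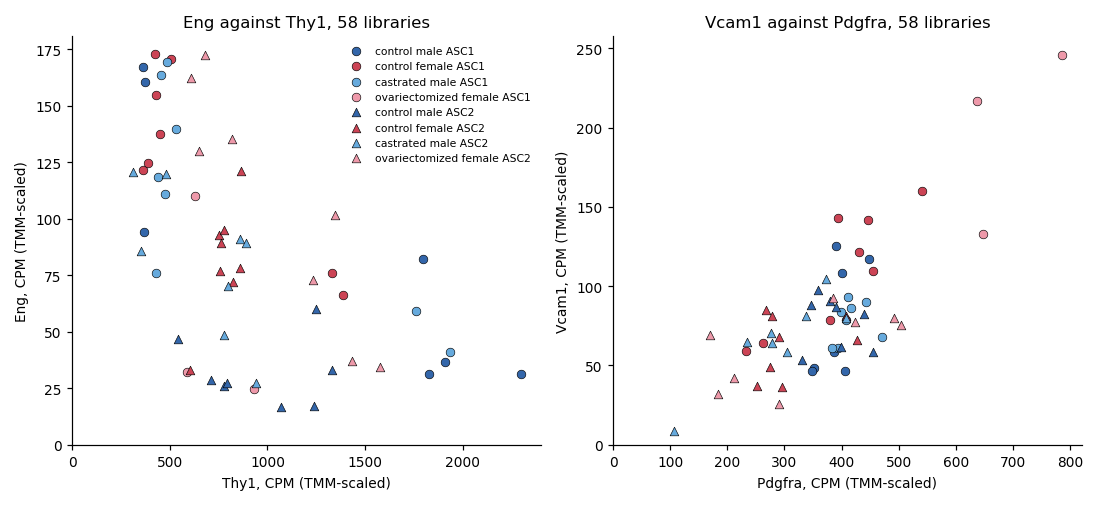
The left panel plots Eng on the y axis against Thy1 on the x axis and the right panel Vcam1 against Pdgfra, all in CPM, with 1 point per library, circles for ASC1 and triangles for ASC2. The 16 libraries with Thy1 of at least 1069 CPM have Eng between 16.6 and 102 CPM (r = -0.595 over 58 libraries), and Vcam1 rises with Pdgfra (r = 0.759).

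Cd34 separated ASC2 from ASC1 in each kind of mouse. Its lowest, median and highest libraries were at 199, 284 and 346 CPM in control male ASC1 and at 540, 934 and 1372 CPM in control male ASC2. In control females they were at 78.7, 172 and 249 CPM in ASC1 and at 502, 735 and 1902 CPM in ASC2. In castrated males they were at 24.0, 42.5 and 185 CPM in ASC1 and at 335, 401 and 1055 CPM in ASC2. In these 3 kinds of mice, every ASC2 library lay above every ASC1 library, with log2 fold changes of 1.72 (SE 0.33, adjusted p = 1.98e-04) in control males, 2.41 (SE 0.33, adjusted p = 2.11e-07) in control females and 2.71 (SE 0.34, adjusted p = 3.83e-08) in castrated males. With the matching libraries the control female difference was 1.79 and did not pass (adjusted p = 0.107). The castrated male difference could not be computed so, because no castrated male ASC1 library matched its label.

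In ovariectomized females the order of Cd34 was the reverse. The 3 ASC1 libraries were at 1782, 1372 and 1666 CPM, and the 8 ASC2 libraries had a lowest, median and highest level of 127, 333 and 721 CPM. The difference of ASC2 from ASC1 was -2.32 (SE 0.39, adjusted p = 3.58e-06).

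Castrated males and ovariectomized females were compared with controls for Cd34 as well. Castrated male ASC1 libraries lay below every control male ASC1 library, at -1.91 on the log2 scale (SE 0.34, adjusted p = 2.48e-04), and below control females by 1.16 (log2 fold change -1.16, SE 0.33, adjusted p = 0.0446). The first of these did not pass within letters A to D and I to L (-1.29, adjusted p = 0.198), nor did the second (-0.45, adjusted p = 0.777), which also failed when only the 2 groups were fitted (-1.16, adjusted p = 0.0699). Neither could be computed with matching libraries, as no castrated male ASC1 library matched its label by sex-chromosome transcripts. The summed endothelial markers, which would carry Cd34, were 52.1 to 81.1 CPM in control male and 50.7 to 75.9 CPM in castrated male ASC1. Mesothelial and leukocyte markers moved in the same comparison, as given above. The part of any of these markers in the Cd34 difference was not tested. In castrated male ASC2 the difference from control males was -0.93 (SE 0.31, adjusted p = 0.0539), and without library K, at 1055 CPM, it was -1.14 (adjusted p = 0.0179). In ovariectomized female ASC2, Cd34 was lower than in control females (-1.50, SE 0.32, adjusted p = 0.00293), which did not pass with the matching libraries (-1.15, adjusted p = 0.635) or within letters A to D and I to L (-1.65, adjusted p = 0.152).

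Ly6a, whose reads may be shared with related Ly6 genes and whose level is therefore uncertain, was the most abundant gene of the set. It was higher in ASC2 than ASC1 of control females, at 911, 1579 and 3470 CPM (lowest, median and highest) against 345, 770 and 1226 CPM, a difference of 1.30 (SE 0.25, adjusted p = 3.06e-04). The groups overlapped, and the difference did not pass with the matching libraries (1.86, adjusted p = 0.0634) or within letters A to D (0.87, adjusted p = 0.255). In ovariectomized female ASC2 it was at 514, 1066 and 1557 CPM, lower than in control females by 0.91 on the log2 scale (log2 fold change -0.91, SE 0.25, adjusted p = 0.0363). It did not pass with the matching libraries (-0.58, adjusted p = 0.970), within letters A to D and I to L (-1.03, adjusted p = 0.397) or E to H and M to P (-0.87, adjusted p = 0.161), or when only the 2 groups were fitted (adjusted p = 0.0728). Across the 58 libraries, Pearson's r between Cd34 and Ly6a was 0.669, as a description.

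By edgeR the PDGF receptors passed in no comparison that left out ovariectomized female ASC1. In the other groups, the means of Pdgfra lay between 289 and 415 CPM and those of Pdgfrb between 340 and 554 CPM. Each gene had an unadjusted p under 0.05 in 2 comparisons. One of these, Pdgfra in ASC2 against ASC1 of castrated males (-0.52, SE 0.19, adjusted p = 0.0693), passed by DESeq2 (-0.55, adjusted p = 0.0341). No castrated male ASC1 library matched its label by sex-chromosome transcripts. Pdgfrb differed by -0.47 (adjusted p = 0.109) between ASC2 and ASC1 of control males and by -0.43 (adjusted p = 0.196) in control females. The interval for castrated against control male ASC1, for example, was -0.30 to 0.47 for Pdgfra and -0.69 to 0.10 for Pdgfrb. The highest and lowest sums of 8 mural cell markers, which would carry Pdgfrb, were 138 and 3653 CPM among these 7 groups. Library K of castrated male ASC2 was at 106 CPM of Pdgfra, 97.2 CPM of Pdgfrb and 8.71 CPM of Vcam1, the lowest of all 58 libraries for each of the 3 genes.

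Vcam1, the ligand of integrin alpha4beta1, had group means of 61.9 to 110 CPM outside ovariectomized female ASC1 and passed in no comparison between those groups by edgeR. Nearest was ASC2 against ASC1 of control females, at -0.81 (SE 0.26, adjusted p = 0.0503), with libraries at 36.7, 66.9 and 85.3 CPM (lowest, median and highest) in ASC2 and 58.9, 116 and 160 CPM in ASC1. This difference passed by DESeq2 (-0.86, adjusted p = 0.0199), and 2 comparisons had an unadjusted p under 0.05. Pearson's r between Vcam1 and Pdgfra was 0.759 over the 58 libraries, as a description.

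Alcam was highest in control male ASC2. There its lowest, median and highest libraries were at 36.8, 83.3 and 170 CPM (mean 96.3 ± 45.0, SD, n = 8), against 3.17, 40.5 and 82.5 CPM in control female ASC2 (mean 40.9 ± 26.5, SD, n = 8) and 20.4, 41.0 and 61.7 CPM in control male ASC1 (mean 41.0 ± 12.2, SD, n = 7). The groups overlapped. Alcam was higher in male than female ASC2 by 1.24 (SE 0.34, adjusted p = 0.0154), and by 2.30 (adjusted p = 0.0169) with the matching libraries. It was higher in ASC2 than ASC1 of control males by 1.20 (SE 0.35, adjusted p = 0.0158). Neither passed within letters E to H, where no library of these groups matched its label (0.91, adjusted p = 0.526, and 1.06, adjusted p = 0.365). The first did not pass when only the 2 groups were fitted (1.22, adjusted p = 0.0874), nor the second with the matching libraries (1.29, adjusted p = 0.0605).

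Cd9 was even across the control groups, at means of 252 to 321 CPM, and lower after castration in ASC1. There the castrated male libraries were at 164, 190 and 257 CPM (lowest, median and highest) and the control male libraries at 273, 320 and 392 CPM, without overlap. The difference was -0.67 (SE 0.15, adjusted p = 0.00478), and -0.55 against control females (SE 0.14, adjusted p = 0.0263). The first was -0.71 in letters A to D and I to L and -0.64 in E to H and M to P, where it did not pass (adjusted p = 0.0526 and 0.0561). The second was -0.54 and -0.59 there (adjusted p = 0.199 and 0.111). No castrated male ASC1 library matched its label by sex-chromosome transcripts, so neither difference could be computed with matching libraries. In ASC2 the castration difference was -0.01, with an interval of -0.30 to 0.27, and the test of the effect in ASC2 less that in ASC1 gave 0.66 (SE 0.21, adjusted p = 0.0722).

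**Figure D5:**
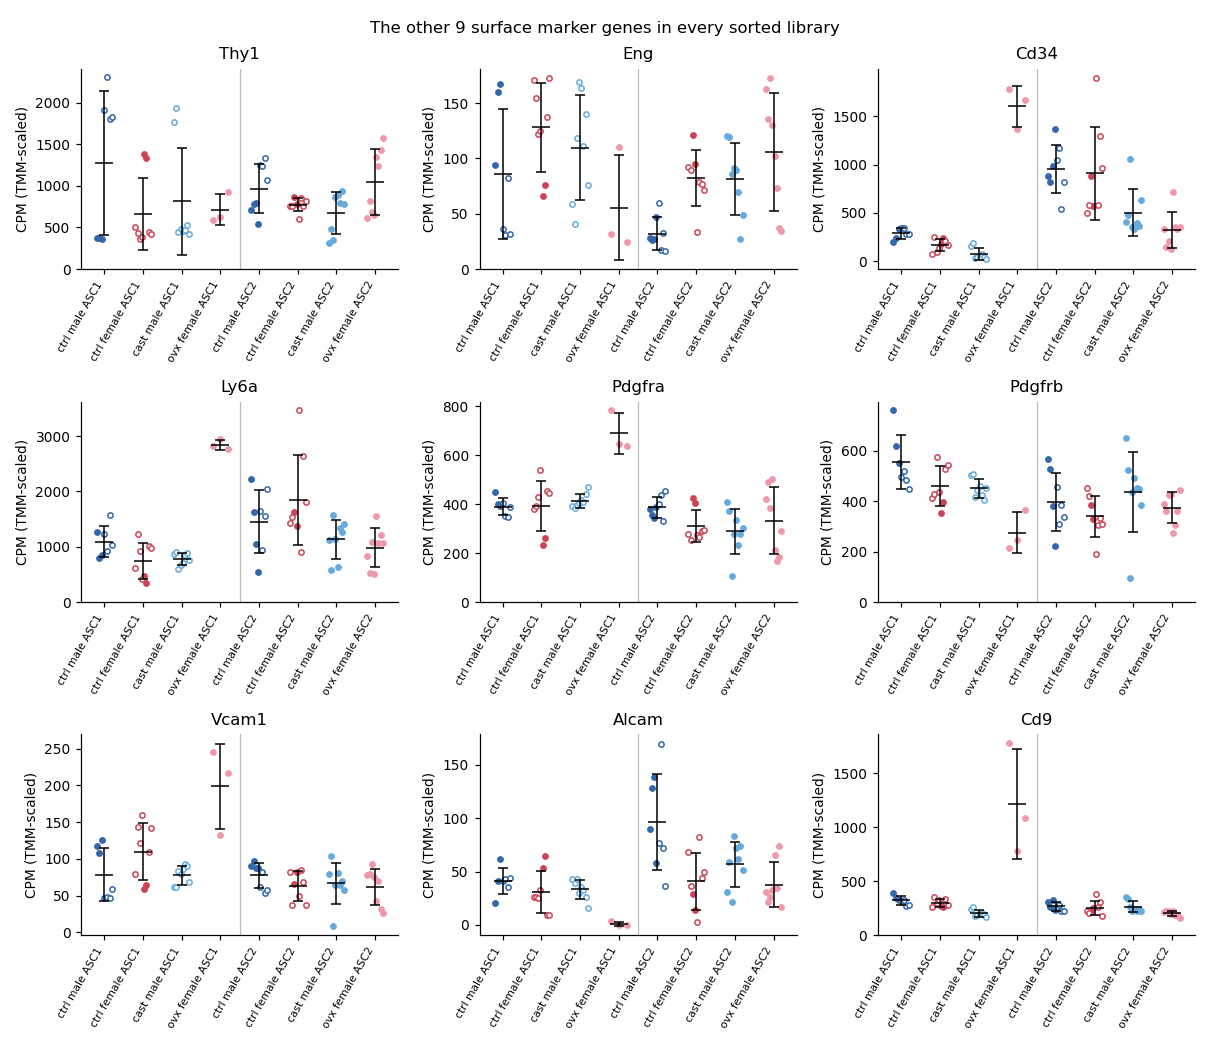
Each panel shows 1 of the other 9 genes, with a point per library in CPM on the y axis, group on the x axis, open points where sex-chromosome transcripts did not match the label, and bars for the mean ± SD (ctrl, control; cast, castrated; ovx, ovariectomized). The 3 ovariectomized female ASC1 libraries stand above the other groups in Cd9 and near 0 in Alcam. In Cd34 they have the highest mean, but control female ASC2 library E (1902 CPM) lies above them. Thy1 falls into a high and a low set in control male ASC1 (1799 to 2301 and 360 to 373 CPM).

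The ovariectomized female ASC1 libraries differed from control female ASC1 in 8 of the 10 genes, where 34.8% of all genes passed. Over all genes the median difference was -0.34 on the log2 scale, and over the 10 it was 0.46. Cd34 was higher by 3.23 (SE 0.39, adjusted p = 1.70e-09), with its levels given above. Cd9 was at 1781, 780 and 1090 CPM in its 3 libraries against 256 to 348 CPM in control females, higher by 2.05 (SE 0.18, adjusted p = 1.17e-13). Ly6a was at 2828, 2946 and 2762 CPM, higher by 1.93 (SE 0.32, adjusted p = 2.33e-06), although its 3 libraries were no higher than the highest of the control female ASC2 group. Pdgfra was at 786, 647 and 638 CPM, higher by 0.82 (SE 0.24, adjusted p = 0.00715), and Vcam1 at 246, 133 and 217 CPM, higher by 0.86 (SE 0.34, adjusted p = 0.0432).

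In this group 3 genes were lower. Besides Nt5e, Alcam had 3 reads in the 3 libraries, at 3.43, 0 and 0 CPM, against 148 reads in control female ASC1, which is 13.0-fold lower with an exact 95% interval of 4.38 to 64.0 for counting error only. Pdgfrb was at 213, 248 and 365 CPM, lower by 0.76 (log2 fold change -0.76, SE 0.28, adjusted p = 0.0285). Thy1 (0.11, adjusted p = 0.886) and Eng (-1.25, adjusted p = 0.0585) did not pass. Without library L, with 1114321 reads the deepest of the 3, the number called fell from 8 to 5, with Pdgfra (0.68, adjusted p = 0.0906), Pdgfrb (-0.62, adjusted p = 0.181) and Vcam1 (0.62, adjusted p = 0.307) lost. Without library N, Pdgfrb (adjusted p = 0.0784) was lost and Eng passed, and without library P, Vcam1 (adjusted p = 0.0784) was lost. Against ASC2 of ovariectomized females, the ASC1 libraries were higher in Cd34, Ly6a, Pdgfra, Vcam1 and Cd9 and lower in Nt5e and Alcam. The fibroblast marker sum of 43144 to 45105 CPM moved with these differences, and its part in them was not tested.

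Other surface markers of stem cells were counted beside the 10 genes, 22 of 23 being tested. In male against female ASC2, 2 were higher, Itgav (integrin alpha V; 0.83, adjusted p = 0.0104) and Mme (the endopeptidase CD10; 1.60, adjusted p = 0.0391), and none was lower, with a median of 0.17. The 2 of 22 stand beside 6.5% of all genes called, so the count is near the background. After castration in ASC2, Mme (-1.55, adjusted p = 0.0451), Cd81 and Anpep were lower and none was higher, 3 of 22 where 6.96% of all genes passed. In castrated against control male ASC1, Ngfr, the nerve growth factor receptor CD271, was higher by 3.85 (SE 0.87, adjusted p = 0.00652) and Ly6c1 fell by 1.62 (adjusted p = 0.00128), 2 of 22 where 2.36% of all genes passed. None of the castrated male ASC1 libraries in this comparison matched its label by sex-chromosome transcripts. In ovariectomized against control female ASC2, Cd55 (-1.55, adjusted p = 0.00593) and Ly6c1 (-1.34, adjusted p = 0.00607) were lower and none was higher, 2 of 22 where 2.09% of all genes passed, with a median of 0.27 over the 22. Both were higher in ovariectomized than control female ASC1, Cd55 at 86.9 ± 27.7 against 26.8 ± 11.4 CPM (SD, n = 3 and 8) and Ly6c1 at 984 ± 177 against 120.2 ± 46.9 CPM. In that comparison 5 of the 22 were higher and 5 lower, where 34.8% of all genes passed.

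Of 21 ligands and binding partners of the 10 proteins, 20 were tested. The lowest adjusted p by edgeR was 0.306 in male against female ASC1 (Itga3, -1.47, SE 0.50) and 0.0843 in castrated against control male ASC1 (Itgb7, -1.95, SE 0.63), both integrin subunits. In male against female ASC2, Tgfb3 (0.69, adjusted p = 0.0158), a ligand that binds endoglin with its receptors, and Msn (0.56, adjusted p = 0.0145), a linker of membrane proteins to actin, were higher. Igsf8 (-0.76, adjusted p = 0.0391), a partner of Cd9, and Ezr (-0.91, adjusted p = 0.0374), another actin linker, were lower. These are 4 of 20 genes, where 6.5% of all genes passed. After castration in ASC2, Igsf8 was higher (0.86, adjusted p = 0.0188) and Tgfbr3 (-0.75, adjusted p = 0.0304), the co-receptor betaglycan, was lower with Pdgfd, 3 of 20 where 6.96% of all genes passed. The PDGF ligands Pdgfa, Pdgfb and Pdgfc and the alpha4 integrin Itga4 passed in neither comparison.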

How the data were processed

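RNA of sorted cells was made into Smart-seq3 libraries. Per the labels and the study's methods, the authors quantified reads with Salmon 1.9.0 on Gencode transcripts of GRCm39, used STAR 2.7.10a for quality control, and removed libraries with few detected genes. The deposited matrix holds expected counts per gene, from reads with and without molecular identifiers, of which 15.0% of values above 0 were not whole. They were rounded here. A gene entered the tests if over 3 libraries had 5 or more reads of it (12464 of 56953). One edgeR 4.0.16 quasi-likelihood model (R 4.3.3) with TMM factors and 8 group coefficients gave 15 contrasts, with Benjamini-Hochberg adjustment over all genes and a threshold of 0.05. SEs were taken from the fold change and F statistic. CPM used TMM-scaled library sizes. DESeq2 1.42.0, other scaling, filters and sample sets were alternatives. Library totals of 106562 to 1421518 reads limit low genes such as Nt5e, and intervals on reads cover counting error only. No pair of libraries within a group (192 pairs) was a copy, the lowest chi-square per gene being 1.53. The script was tested on simulated data.

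Exon lengths came from Gencode vM21 and promoters from RefSeq (GRCm38.p6). Named genes were the 10 members, 3 lists of related genes and the 5 genes most correlated with Nt5e. The members and lists were chosen with earlier results of these data known. Per the study's methods, ASC1 and ASC2 of one kind of mouse shared mice, but no label names the mouse. The letters were checked as a pairing. Deviations of same-letter libraries correlated at 0.0537 to 0.203 between control male ASC1 and ASC2. In none of the pairs of groups were all correlations over 0.1, so the main fit had no block. This does not show independence, and ASC2 against ASC1 was fitted as unpaired. Subsets by letter and the fit without library K were added after seeing the data.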

Additional observations from a re-analysis of the deposited data

Results flagged for a closer look

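Among 70 groups of 7 or 8 libraries tested for a single library far from the others, 5 had one, and chance gives about 1 in 20. Cd34 was at 1055 CPM in library K of castrated male ASC2, with the next library at 634 CPM. Cd34 was at 721 CPM in library M of ovariectomized female ASC2, with the next at 354 CPM. Nt5e was at 30.6 CPM in library B of control male ASC1, with the next at 14.2 CPM, and at 25.7 CPM in library P of ovariectomized female ASC2, with the next at 12.4 CPM. The latter value rests on 3 reads. Thy1 was lowest in library E of control female ASC2, at 603 CPM, with the next at 754 CPM.

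The sex difference of Nt5e in control mice differed between ASC2 and ASC1 by 4.40 on the log2 scale (adjusted p = 0.00216, edgeR), with all 8 male ASC2 libraries above all 8 female ones and overlapping groups in ASC1. It did not pass with the matching libraries or within letters A to D, and DESeq2 gave no adjusted p. In ASC1, 3 of 7 control male and 2 of 8 control female libraries matched their label by sex-chromosome transcripts.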

How the results depend on the processing

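RLE size factors, which shifted the median of all genes by -0.08 to 0.06 on the log2 scale, left each of the 15 counts of genes called within 1.5 times its main value. Without the filter on low counts, the number called rose to 2 for castrated against control male ASC2 and for castrated male against control female ASC2 (Cd34 was added in each), and to 1 for the castration less the ovariectomy effect. DESeq2 called 2 in castrated against control male ASC2 (Eng and Cd34), 1 in the castration effect of ASC2 less ASC1 (Cd9), 1 in castration less ovariectomy (Nt5e) and 0 in the sex difference of ASC2 less ASC1, where it gave Nt5e a log2 fold change of 4.65 and no adjusted p. With only the groups compared in the fit, 1 gene was called in ovariectomized against control female ASC2. The replicate block by letter called 1 gene in castration less ovariectomy (Nt5e, -3.40) and moved no other count by more than 1.5 times. It could not be fitted between control and operated groups, whose letters differ.

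With the libraries whose sex-chromosome transcripts matched, 1 gene was called in male against female ASC1 (Thy1), 0 in ovariectomized against control female ASC2, 0 in castrated male against control female ASC2, 0 in control female ASC2 against ASC1, and 2 in the sex difference of ASC2 less ASC1 (Eng and Alcam). Nt5e in male against female ASC1 turned from -0.48 to 1.17. The comparisons with castrated male ASC1 had no matching library and were not run. Leaving out 1 of the 3 ovariectomized female ASC1 libraries gave 5 to 8 genes called against control females. Without library K, 2 were called in each of castrated male ASC2 against control males and against control females.

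In letters A to D and I to L, 0 were called in ovariectomized against control female ASC2, 0 in castrated male against control female ASC2, 2 in the castration effect of ASC2 less ASC1 and 0 in the sex difference of ASC2 less ASC1. In letters E to H and M to P, 1 was called in male against female ASC1, 1 in male against female ASC2, 0 in castrated against control male ASC2, 2 in castrated male against control female ASC2, 1 in control male ASC2 against ASC1, 2 in the castration effect of ASC2 less ASC1 and 1 in castration less ovariectomy. These subsets hold 1 to 4 libraries a group. The cause of the changes was not tested. Nt5e in male against female ASC2 was called under each alternative run, at 3.73 to 4.69. Among these runs, the subset of letters E to H held no library of either group that matched its label.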
